A study of Homo sapiens with 21 samples.

Results

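The comparison described here was between 2 lentiviral vectors in cells that lack ISL1: 3 libraries from ISL1-/- cells labelled with the ISL1 vector and 3 from ISL1-/- cells labelled with the control vector, chosen by library name, 6 of the 21 RNA-seq libraries of the study. All 21 libraries came from H1, a human embryonic stem cell line, driven through a protocol that makes islet cells. On day 11 the cells were dissociated and given lentivirus that carried either ISL1 joined by an internal ribosome entry site to BFP, a blue fluorescent protein, or BFP alone. Cells positive for BFP were sorted by flow cytometry on day 18, so that both groups had been transduced and passed through the same gate. The other genotypes were WT, with 2 libraries for each vector, PAX6-/- with 3 for each, and PDX1-/- with 3 for BFP and 2 for ISL1. The labels call the replicates biological. They name no clone for the knockout lines, no promoter for the vectors, and no date or batch. Every library of the study is named here after its label, so "with the ISL1 vector" means so labelled.

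ISL1 is a LIM-homeodomain transcription factor. It binds DNA through its homeodomain and works in complexes held together by LIM domain binding proteins, and it is needed to make and keep hormone-expressing endocrine cells of the pancreas. It is also known for its parts in motor neurons, sensory neurons and the second heart field. Stem cell-derived islets hold alpha-like cells that make glucagon, beta-like cells that make insulin, a few delta-like cells that make somatostatin, and cells that resemble the serotonin-making enterochromaffin cells of the gut.

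Promoters are shown for 4 genes whose levels are described below, glucagon (GCG), neurotensin (NTS) and the ion exchanger gene SLC24A4, which passed the test between the vectors, and somatostatin (SST), which missed its threshold. Each is the 250 bases before a RefSeq transcription start in GRCh38.p14, written 5′ to 3′ on the gene's strand. Capitals mark a LIM-homeodomain type motif, CTAATTG or CTAATGG, on either strand. Where that motif is missing they mark its TAAT core. The stretches lie at chr2:162152248-162152497 on the minus strand for GCG, chr3:187670395-187670644 on the minus strand for SST, chr12:85874045-85874294 on the plus strand for NTS and chr14:92322331-92322580 on the plus strand for SLC24A4.
GCG: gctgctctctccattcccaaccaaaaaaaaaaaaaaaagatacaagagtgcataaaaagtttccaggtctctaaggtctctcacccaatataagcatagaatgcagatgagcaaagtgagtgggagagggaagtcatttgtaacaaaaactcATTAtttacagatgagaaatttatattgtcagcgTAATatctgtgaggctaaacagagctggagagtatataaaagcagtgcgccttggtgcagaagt
SST: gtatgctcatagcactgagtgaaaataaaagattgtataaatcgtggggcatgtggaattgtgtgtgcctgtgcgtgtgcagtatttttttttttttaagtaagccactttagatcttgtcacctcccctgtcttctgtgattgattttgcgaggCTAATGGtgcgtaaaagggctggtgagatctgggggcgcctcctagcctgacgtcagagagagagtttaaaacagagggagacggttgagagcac
NTS: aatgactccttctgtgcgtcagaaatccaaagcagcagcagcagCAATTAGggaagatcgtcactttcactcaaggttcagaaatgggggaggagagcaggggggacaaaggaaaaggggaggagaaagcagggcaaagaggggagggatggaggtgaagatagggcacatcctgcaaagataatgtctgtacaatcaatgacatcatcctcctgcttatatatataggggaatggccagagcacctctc
SLC24A4: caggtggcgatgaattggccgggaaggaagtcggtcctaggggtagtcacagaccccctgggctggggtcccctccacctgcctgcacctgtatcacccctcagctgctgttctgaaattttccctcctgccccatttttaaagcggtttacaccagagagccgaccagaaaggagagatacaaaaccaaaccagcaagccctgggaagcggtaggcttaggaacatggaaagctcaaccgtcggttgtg
The SST motif began 95 bases before the start and the NTS motif 206 bases before it, there as the reverse complement. GCG had 2 TAAT cores, 98 and 64 bases before the start, and the SLC24A4 stretch had neither the motif nor the core. Of the 35116 promoter stretches in the table, 2.98% held the motif of 7 letters and 47.4% held the core. Of the 99 genes that passed the test between the vectors, 65 had 110 stretches in the table, of which 6 (5.45%) held the motif and 54 (49.1%) the core. The motif genes were NTS, CAPN8, GARNL3 and OLFM1 among those higher with the ISL1 vector, and B3GAT1 and ANKS4B among those lower. These are matches of letters, not sites of binding.

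The 21 libraries held 36807615 to 60199880 counted reads, the 6 from ISL1-/- cells 50304197 to 60199880. Levels are in CPM, a gene's count scaled to the library size that edgeR normalises, and are compared for 1 gene between libraries, not between genes. In the 6 libraries alone the first principal component (35.4% of the variance) separated the 2 vectors, and the second (24.02%) set replicate 3 of both groups apart from the other 4. Those 2 libraries also had the highest summed level of the 12 genes listed for second heart field and cardiac muscle, 388 and 313 CPM against 117 to 160 in the other 4, and whether this touches the results below was not tested. INS and the granule gene CHGA, which mark islet endocrine cells, were counted in all 6 (values below). Mitochondrial genes took 1.2995% to 1.87% of counts in the 6 libraries. In the rest of the study, replicate 3 of PAX6-/- with the ISL1 vector and replicate 4 of PDX1-/- with the ISL1 vector stood apart at 3.16% and 3.84%. Both entered the shared estimate of the spread, so counts are also given without them.

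ISL1 itself did not separate the vectors. The 3 libraries labelled BFP had 73.7, 74.6 and 82.4 CPM and the 3 labelled ISL1 had 71.5, 85.0 and 96.7 CPM, so the groups overlapped. The log2 fold change was 0.13 ± 0.35 (standard error, n = 3 and 3; adjusted p = 1 in edgeR's quasi-likelihood test). Both groups lay at 18.6% and 20.5% of the WT level with the BFP vector, which was 306 and 518 CPM, and the lower level with BFP passed the test (log2 difference from WT -2.42 ± 0.39, adjusted p = 0.00127). ISL1 did not pass between the vectors in the other genotypes either, with log2 fold changes of -0.24 ± 0.43 in WT, 0.16 ± 0.35 in PAX6-/- and 0.56 ± 0.39 in PDX1-/- cells. BFP has no entry in the count table, so which vector a library carried rests on its label, and below a library is named ISL1-labelled or BFP-labelled after it.

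Of 25884 genes tested, 99 differed between the vectors at an adjusted p under 0.05 in edgeR (0.382%), 65 higher in the ISL1-labelled libraries (0.251%) and 34 lower (0.131%). In all 99 the 3 libraries of one group lay clear of the 3 of the other, as in 24.9% of all tested genes. Among the higher genes were the hormone genes GCG and NTS, the transcription factor genes HHEX, PRDM14 and ETV1, the T-box repressor partner RIPPLY3 and the exchanger SLC24A4. Among the lower genes were DDC and MME, listed for enterochromaffin cells, and CBLN1, NETO1 and SYT13. The higher genes had the larger changes, with a median log2 size of 2.16 against 1.43 for the lower genes, and 18 of the 65 had a mean under 1 CPM in the BFP-labelled libraries. Bulk RNA cannot tell a larger share of cells of a type from more RNA of a gene in each cell.

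**Figure D1:**
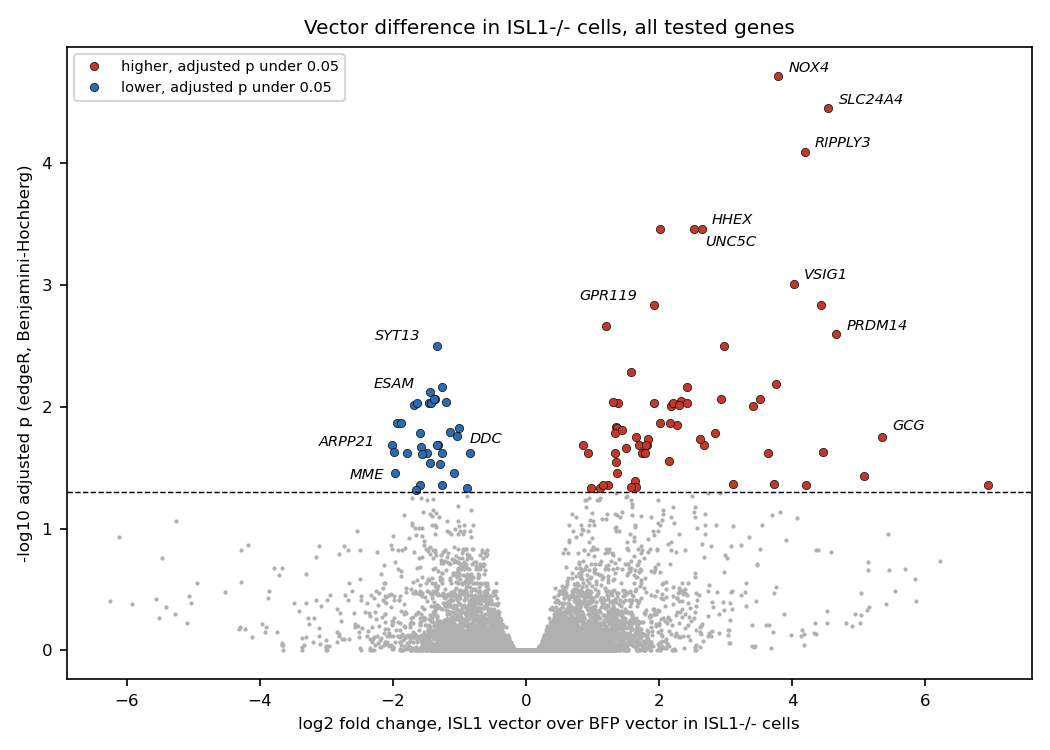
Log2 fold change between the ISL1 and BFP vectors in ISL1-/- cells (x axis) against -log10 of the adjusted p in edgeR (y axis), 1 point per tested gene, with the dashed line at an adjusted p of 0.05. The 65 higher genes (red) reach further from 0 than the 34 lower genes (blue), and NOX4, SLC24A4 and RIPPLY3 have the smallest adjusted p.

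The number of genes that passed depended on the libraries and the terms in the fit. A fit of the 6 ISL1-/- libraries alone gave 645 higher and 805 lower, or 2.88% and 3.59% of the genes it tested. A fit of the study without the 2 libraries of high mitochondrial share gave 521 and 824 (1.91% and 3.02%), without the PAX6-/- library alone 138 and 89, and without the PDX1-/- library alone 190 and 174. All libraries with an added term for the replicate number in the library name gave 255 and 228. Most calls were higher in the fit of all libraries (65.7%), and most were lower in the fit of 6 libraries (44.5% higher) and without the 2 libraries (38.7% higher). Of the 65 higher genes 63 passed also in the fit of 6 libraries, as did all 34 lower genes. Leaving out 1 of the 6 libraries lowered the total to 41, 36 and 14 without BFP-labelled replicates 1, 2 and 3, and to 31, 23 and 55 without ISL1-labelled replicates 1, 2 and 3. Calls that held in each of these 6 fits were those of 11 higher genes and 2 lower genes: PRDM14, SLC24A4, NKAIN2, RIPPLY3, VSIG1, NOX4, HHEX, UNC5C, NKAIN3, GPR119, C3orf80, SYT13 and ESAM. Of the 65 higher genes 22, and of the 34 lower genes 14, kept their call in none of the 6.

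GCG, the gene of the alpha cell hormone glucagon, had the largest rise among called genes of at least 5 CPM. It stood at 90.9, 74.2 and 85.2 CPM in the BFP-labelled libraries and at 2196, 2688 and 5360 CPM in the ISL1-labelled ones. The groups were far apart, and ISL1-labelled replicate 3 was the highest. The fitted fold change was 40.9 and the log2 fold change 5.35 ± 0.97 (adjusted p = 0.0176). WT cells with the BFP vector had 36228 and 51294 CPM, so that the level was 0.191% of WT with the BFP vector and 7.80% of WT with the ISL1 vector. GCG kept its call in 1 of the 6 fits that left out a library, where its log2 fold change ranged from 4.87 to 5.59, and its adjusted p was 0.000176 in the fit of 6 libraries. DESeq2, run as an alternative test, gave GCG no adjusted p, so its call has no counterpart there.

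Of the other hormone genes examined, some lay apart in the same direction without passing and some overlapped between the groups. SST, the delta cell hormone gene, had 0.389, 0.572 and 0.560 CPM in the BFP-labelled libraries and 4.14, 5.82 and 11.5 CPM in the ISL1-labelled ones. The groups did not overlap, but the change of 3.81 ± 0.87 missed the threshold (adjusted p = 0.0727), which it passed in the fit of 6 libraries (0.00160). PYY, the gene of peptide YY, had 0.814, 0.450 and 1.23 against 2.47, 2.99 and 6.86 CPM (log2 fold change 2.30 ± 0.84, adjusted p = 0.392; 0.0238 in the fit of 6 libraries). PPY, the gene of pancreatic polypeptide, had at most 1 read in any BFP-labelled library and 0.166, 0.0997 and 0.576 CPM in the ISL1-labelled ones (adjusted p = 0.221). INS, the insulin gene, overlapped between the groups, at 2251, 2391 and 1699 against 1893, 2351 and 2471 CPM (0.08 ± 0.85, adjusted p = 1), and stayed below the 7182 and 5648 CPM of WT. GHRL, the ghrelin gene, was at 40.9, 37.2 and 50.8 against 35.8, 37.2 and 55.0 CPM (-0.01 ± 0.52, adjusted p = 1).

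**Figure D2:**
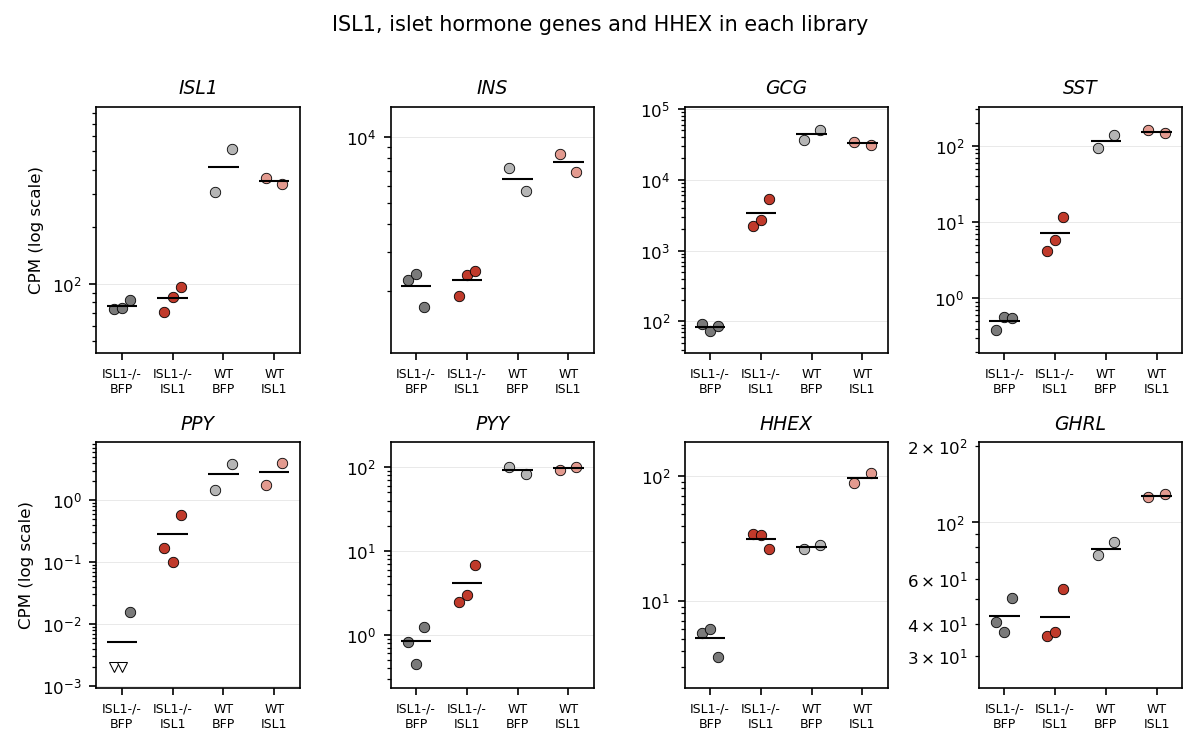
CPM (log scale) of ISL1, 6 hormone genes and HHEX in each library of ISL1-/- and WT cells by vector; points are libraries, horizontal lines are group means, and open triangles are libraries with no count, drawn at 0.002 CPM. GCG, SST, PPY, PYY and HHEX are higher in all 3 ISL1-labelled ISL1-/- libraries than in the 3 BFP-labelled ones, while ISL1, INS and GHRL overlap.

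Of the alpha and beta cell markers 1 each passed, where 0.382% of all tested genes passed. The same share stands against list counts of the fit of all libraries below. Of 14 alpha cell genes, GCG was the only one to pass, and the median log2 fold change of the list was -0.30, against 0.03 for all tested genes. TTR, the transthyretin gene, had a change of 0.31 ± 0.60 (adjusted p = 1). Of 16 beta cell genes only ERO1B passed, an oxidase that helps proinsulin fold, with 110, 157 and 124 against 272, 299 and 350 CPM (1.24 ± 0.26, adjusted p = 0.0441). The median of the beta cell list was 0.13. G6PC2, an islet glucose-6-phosphatase, had 0.991, 1.18 and 1.46 against 7.68, 11.9 and 9.38 CPM but an adjusted p of 0.164, and NKX6-1, a beta cell factor, was lower at 87.2, 87.3 and 121 CPM against 203, 200 and 253 (adjusted p = 0.193). The fit of 6 libraries called 4 alpha cell genes higher and 2 lower, and 4 beta cell genes higher and 2 lower. Without the 2 libraries of high mitochondrial share these were 3 and 4 alpha cell genes, and 5 and 1 beta cell genes. Counts of list genes in these 2 fits, here and below, stand against the 2.88% higher and 3.59% lower of all genes in the first and the 1.91% and 3.02% in the second.

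HHEX, a homeobox factor needed for delta cells, rose from 5.61, 6.03 and 3.58 CPM to 34.6, 34.1 and 26.1 CPM. The lowest ISL1-labelled library was more than any BFP-labelled one, and the log2 fold change was 2.64 ± 0.30 (adjusted p = 0.000346). The mean was 18.7% of the WT level with the BFP vector and 117% of it with the ISL1 vector. HHEX was 1 of the 8 delta cell genes to pass, and 7 of the 8 had a positive change, with a median of 0.71. Of all tested genes 53.5% had a positive and 46.4% a negative change, the shares against which such counts of signs stand here and below. RBP4, a retinol carrier, had 56.4, 44.4 and 29.4 against 131, 112 and 97.0 CPM (1.38 ± 0.62, adjusted p = 0.600). The summed level of the delta cell list was 64.0 to 87.1 CPM in the BFP-labelled and 166 to 201 CPM in the ISL1-labelled libraries. HHEX, SST and RBP4 were the 3 delta cell genes called in the fit of 6 libraries, and 3 of the list passed also without the 2 libraries of high mitochondrial share.

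Among 14 genes of gut peptide hormones, NTS alone passed in the fit of all libraries, while the fit of 6 libraries called 2 higher and 3 lower of 11 tested. Neurotensin is a peptide of the gut and brain. Its gene had 4.37, 3.60 and 6.78 CPM in the BFP-labelled libraries and 42.3, 44.6 and 71.0 CPM in the ISL1-labelled ones (log2 fold change 3.42 ± 0.57, adjusted p = 0.00980). This was 39.3% and 421% of the WT level with the BFP vector. CCK, the cholecystokinin gene, was at 268, 252 and 263 against 158, 177 and 196 CPM (-0.56 ± 0.79, adjusted p = 1). GAST, the gastrin gene, overlapped between the groups at 38.7 to 75.3 and 39.8 to 61.8 CPM.

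SLC24A4 encodes an exchanger that moves sodium one way and calcium with potassium the other. The BFP-labelled libraries had 0.336, 0.329 and 0.233 CPM and the ISL1-labelled ones 6.96, 6.56 and 7.52 CPM. The groups did not overlap, and the fitted fold change was 23.3 (log2 fold change 4.54 ± 0.41, adjusted p = 3.54e-05). In WT cells the level was 11.5 and 12.1 CPM with the BFP vector and 12.8 and 8.98 CPM with the ISL1 vector, so the mean was 2.54% of WT in BFP-labelled and 59.5% in ISL1-labelled ISL1-/- cells. In the list of 14 exchangers and calcium handling genes, of which 13 were tested, SLC24A4 was the only one to pass, and the list's median was -0.10. Of the 13 changes 5 were positive and 8 negative, and the fit of 6 libraries called 2 of the 13 higher and 2 lower. The summed level of the list was 1204 to 1474 CPM in the BFP-labelled and 874 to 1108 CPM in the ISL1-labelled libraries. ATP2B2, a calcium pump of the plasma membrane, had 1.54, 1.58 and 1.12 against 4.59, 3.71 and 5.81 CPM (1.73 ± 0.40, adjusted p = 0.0793), while SLC24A3, a related exchanger, changed by -0.18 ± 0.34.

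PRDM14, a transcriptional regulator of pluripotent and germ cells, had 2.85, 3.59 and 2.52 CPM in the BFP-labelled libraries and 87.6, 76.8 and 62.8 CPM in the ISL1-labelled ones. The log2 fold change was 4.66 ± 0.64 (adjusted p = 0.00253). The ISL1-labelled level was far above that of WT cells with the BFP vector, 3.23 and 4.20 CPM, and near that of WT cells with the ISL1 vector, 58.3 and 59.1 CPM. LIN28A, an RNA-binding protein of early cells, rose from 5.15, 4.69 and 6.67 CPM to 12.8, 12.3 and 16.8 CPM (1.34 ± 0.26, adjusted p = 0.0239). These were the 2 of 7 tested pluripotency genes that passed. All 7 changes were positive, with a median of 0.83, and the fit of 6 libraries called 4 higher. The summed level of the list was 86.4 to 108 CPM in the BFP-labelled and 213 to 257 CPM in the ISL1-labelled libraries. POU5F1, the defining gene of the pluripotent state, was at 0.0155 to 0.191 CPM in the BFP-labelled and 0.180 to 0.350 CPM in the ISL1-labelled libraries, and NANOG and TDGF1 were too low to be tested.

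VSIG1, an adhesion protein of the stomach lining, was the 1 of 5 tested stomach genes to pass. It had 1.52, 1.70 and 1.82 CPM in the BFP-labelled and 29.4, 28.5 and 24.1 CPM in the ISL1-labelled libraries (log2 fold change 4.02 ± 0.50, adjusted p = 0.000976). WT cells with the BFP vector had 1.69 and 1.33 CPM. SOX2, a factor of the foregut and of stem cells, had 12.4, 11.7 and 15.5 against 35.5, 41.3 and 46.0 CPM (1.63 ± 0.40, adjusted p = 0.0979). All 5 tested stomach genes were higher without overlap, where 24.9% of all tested genes had no overlap in either direction. Their median was 1.63, and their summed level was 20.8 to 22.7 against 82.0 to 84.2 CPM. Of the 4 stomach genes tested in the fit of 6 libraries, 3 were called higher there. MUC5AC and GKN1, which mark mature stomach epithelium, were too low to be tested. CAPN8, a calpain of the gut, and PGA5, a pepsinogen gene of the stomach, are outside the list and rose to 7.15 ± 0.468 from 1.42 ± 0.259 CPM (SD, n = 3) and to 12.4 ± 1.85 from 2.53 ± 0.288 CPM. PGA5 has near-identical neighbouring copies, so its own share of the reads is uncertain.

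RIPPLY3, a partner of T-box factors that turns them into repressors and a target of retinoic acid, had 1.47, 1.16 and 0.871 CPM in the BFP-labelled libraries and 22.99, 22.9 and 18.0 CPM in the ISL1-labelled ones. Its log2 fold change was 4.19 ± 0.41 (adjusted p = 8.07e-05), and the mean level in WT with the BFP vector was 6.52 CPM. It was the only gene to pass among 14 tested T-box factors and partners and among 18 tested genes of retinoic acid signalling. In the retinoic acid list 14 of 18 changes were positive, with a median of 0.43. RARB, a retinoic acid receptor, had 13.4, 12.8 and 14.7 against 28.5, 28.4 and 23.3 CPM (0.97 ± 0.28, adjusted p = 0.197). The retinoic acid list gave 5 higher and no lower calls in the fit of 6 libraries, and 4 higher without the 2 libraries of high mitochondrial share. For the T-box list the fit of 6 libraries gave 2 higher and 1 lower of 11 tested.

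A partner of ISL1 complexes and 2 endocrine genes also rose. LMO2, a LIM-only protein that binds the same scaffold as ISL1, rose from 1.59, 1.13 and 1.43 CPM to 4.31, 5.87 and 8.33 CPM (2.16 ± 0.42, adjusted p = 0.0277). Its mean went from 3.05% to 13.6% of that in WT with the BFP vector. LMO2 was the 1 of 16 LIM complex genes to pass, while the fit of 6 libraries called 3 higher and 0 lower of 15 tested. The scaffold gene LDB2 had 2.96, 3.20 and 5.33 against 9.80, 8.79 and 14.3 CPM and missed the threshold (1.52 ± 0.33, adjusted p = 0.0545), while the other scaffold gene, LDB1, had a change of 0.00. ETV1, an ETS factor listed for PP and epsilon cells, rose from 15.3, 22.5 and 16.2 CPM to 44.5, 51.2 and 45.7 CPM (1.39 ± 0.23, adjusted p = 0.00932), from 17.3% to 45.4% of WT. GPR119, a lipid receptor of endocrine cells that was chosen after its values were seen, rose from 7.65, 15.7 and 8.05 CPM to 36.3, 41.4 and 42.0 CPM (1.93 ± 0.25, adjusted p = 0.00145), from 4.67% to 17.8% of WT. The comparison with WT shares the BFP-labelled libraries, and across all genes 5.59% differed between ISL1-/- and WT cells with the BFP vector.

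**Figure D3:**
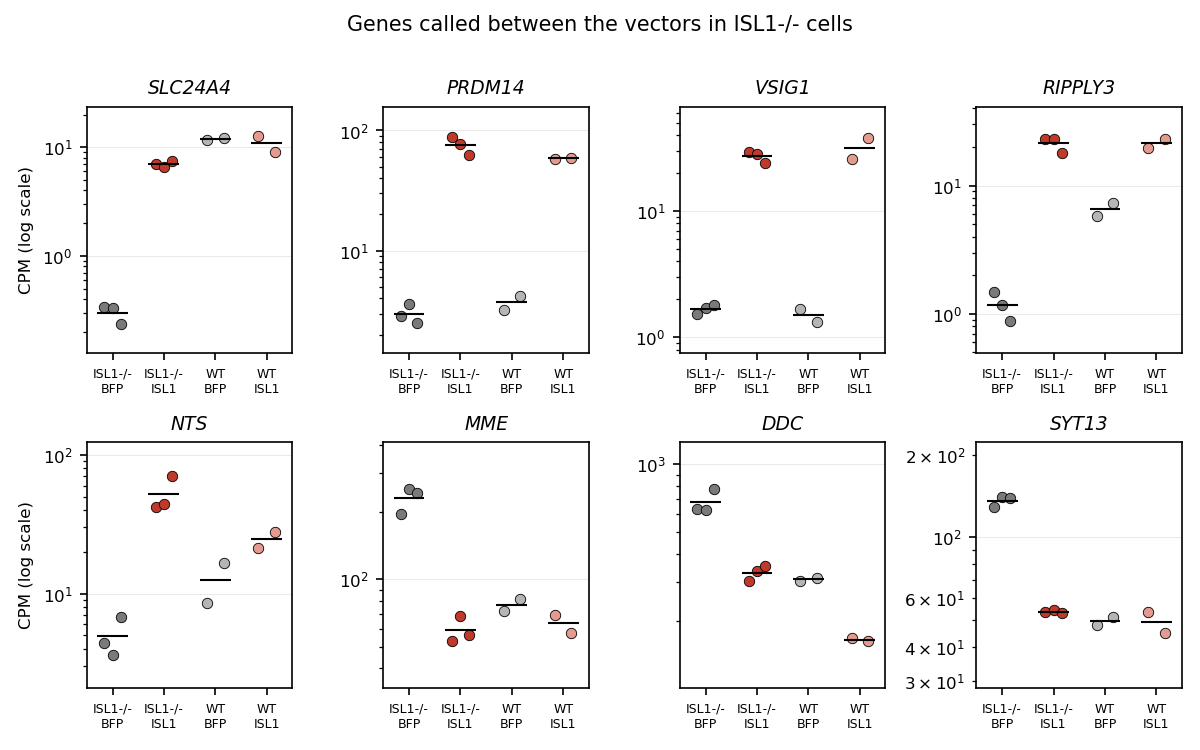
CPM (log scale) of 8 genes called between the vectors in ISL1-/- cells, in each library of ISL1-/- and WT cells; points are libraries and horizontal lines are group means. SLC24A4 is high in both WT groups and PRDM14 and VSIG1 only with the ISL1 vector, while MME, DDC and SYT13 are lower in the ISL1-labelled than in the BFP-labelled ISL1-/- libraries.

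Further rises were spread over other functions. NOX4, an oxidase that makes hydrogen peroxide, had the smallest adjusted p of all genes (1.92e-05), with 2.12, 2.22 and 1.26 against 29.8, 29.7 and 17.7 CPM (3.79 ± 0.32). FRZB, a secreted WNT antagonist, rose from 24.9, 28.7 and 20.6 CPM to 199, 214 and 171 CPM (2.98 ± 0.42, adjusted p = 0.00321). SLC4A4, a sodium bicarbonate cotransporter, rose 7.20-fold and KCNN2, a calcium-activated potassium channel, 6.38-fold by the fitted change. UNC5C, a netrin receptor, rose from 2.16, 2.65 and 2.24 CPM to 12.5, 13.7 and 14.6 CPM (2.53 ± 0.29, adjusted p = 0.000349), and was the 1 of 22 axon guidance genes to pass. In the fit of 6 libraries 4 of the 22 were called higher and 1 lower. ERN1, the endoplasmic reticulum stress sensor IRE1, rose from 12.9, 11.4 and 12.3 CPM to 30.7, 32.4 and 30.9 CPM (1.36 ± 0.24, adjusted p = 0.0149). The other 11 genes of endoplasmic reticulum stress did not pass, and 8 of the 12 changes were negative. In the fit of 6 libraries 1 of the 12 was called higher and 2 lower. NEFL, a neurofilament subunit, was the 1 of 10 neuron genes to pass, at 39.5 ± 6.72 against 88.2 ± 13.4 CPM (SD, n = 3). Of these 10 neuron genes the fit of 6 libraries called 2 higher and 2 lower. SOX21-AS1, a long RNA antisense to SOX21, rose 5.34-fold by the fitted change, and the strand setting of the counting is not given in the sources used here.

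Of the enterochromaffin markers, 2 were lower in the ISL1-labelled libraries. DDC, which makes serotonin from its precursor, fell from 633, 628 and 774 CPM to 302, 335 and 352 CPM (-1.04 ± 0.19, adjusted p = 0.0176). MME, a membrane peptidase, fell from 197, 253 and 244 CPM to 52.8, 68.4 and 56.5 CPM (-1.96 ± 0.40, adjusted p = 0.0349). These 2 of the 9 genes passed, 8 of 9 had a negative change, and the median was -1.10. TPH1, the rate-limiting enzyme of serotonin synthesis, had 141, 174 and 229 against 51.5, 67.1 and 85.0 CPM (-1.41 ± 0.45, adjusted p = 0.281). LMX1A, a transcription factor of these cells, had 279, 296 and 333 against 107, 122 and 114 CPM (-1.41 ± 0.38, adjusted p = 0.150), and FEV, another, 1061, 896 and 1341 against 441, 508 and 593 CPM (-1.10 ± 0.38, adjusted p = 0.343). SLC6A4, the serotonin transporter gene, went the other way, at 1.70, 2.096 and 2.53 against 3.39, 5.17 and 4.88 CPM (1.08 ± 0.51, adjusted p = 0.647).

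The summed level of the 9 genes was 3138 to 3981 CPM in the BFP-labelled and 1499 to 1890 CPM in the ISL1-labelled libraries. The ISL1-labelled mean of DDC was 107% of that in WT with the BFP vector, where the BFP-labelled mean was 220%, and for MME these were 77.0% and 301%. The fit of 6 libraries called 7 of the 9 lower and SLC6A4 higher, and the fit without the 2 libraries of high mitochondrial share called 7 lower and none higher. Neither DDC nor MME kept its call when any of the 6 libraries was left out, with adjusted p up to 0.139 and 0.191.

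The other large falls were of genes outside the fixed lists. CBLN1, a secreted organiser of synapses, fell from 113, 105 and 175 CPM to 33.6, 40.1 and 48.4 CPM (-1.68 ± 0.28, adjusted p = 0.00972). ARPP21, a regulator of calmodulin signalling in neurons, fell from 50.2, 46.2 and 84.9 CPM to 12.8, 13.6 and 19.5 CPM (-1.98 ± 0.38, adjusted p = 0.0237). NETO1, an auxiliary subunit of glutamate receptors, fell from 78.1, 88.8 and 91.6 CPM to 26.3, 30.2 and 29.0 CPM, and SLITRK1, a synaptic adhesion protein, from 6.30, 7.22 and 7.84 CPM to 2.05 to 2.99 CPM. KCNK13, a 2-pore potassium channel gene, fell from 6.12, 5.09 and 8.41 CPM to 1.25, 1.56 and 2.29 CPM (-1.94 ± 0.34, adjusted p = 0.0135). The remaining large falls were those of TTC29, STUM, the interleukin-22 receptor gene IL22RA1, LINC02714, and the unnamed genes ENSG00000291250 and ENSG00000279249, with log2 fold changes from -1.50 to -1.87.

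SYT13, an unusual synaptotagmin of endocrine cells, fell from 129, 140 and 139 CPM to 53.5, 54.3 and 53.1 CPM (-1.34 ± 0.19, adjusted p = 0.00321). WT cells with the BFP vector had 47.9 and 51.2 CPM. It was the 1 of 20 secretory granule and hormone processing genes to pass, 16 of the 20 changes were negative and the median was -0.50. CHGA, the main granin of the granule, had 23901, 23402 and 32923 against 13392, 14107 and 19880 CPM (-0.76 ± 0.31, adjusted p = 0.507), and CHGB, a second granin, 188, 213 and 260 against 104, 121 and 143 CPM (-0.85 ± 0.26, adjusted p = 0.259). In the fit of 6 libraries 8 of the 20 were lower and 1 higher, and without the 2 libraries of high mitochondrial share 8 and 2.

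No endocrine progenitor gene of 14 passed, and 11 of 14 changes were negative with a median of -0.27. NEUROD4, a proneural factor, had 36.3, 34.9 and 37.6 against 13.5, 13.9 and 9.02 CPM (-1.58 ± 0.34, adjusted p = 0.0566), and INSM1, a zinc finger factor of endocrine cells, 1401, 1454 and 1623 against 716, 844 and 846 CPM (-0.90 ± 0.37, adjusted p = 0.507). Both were called lower in the fit of 6 libraries (adjusted p = 0.00100 and 0.00160), which called 3 of the list in all.

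**Figure D4:**
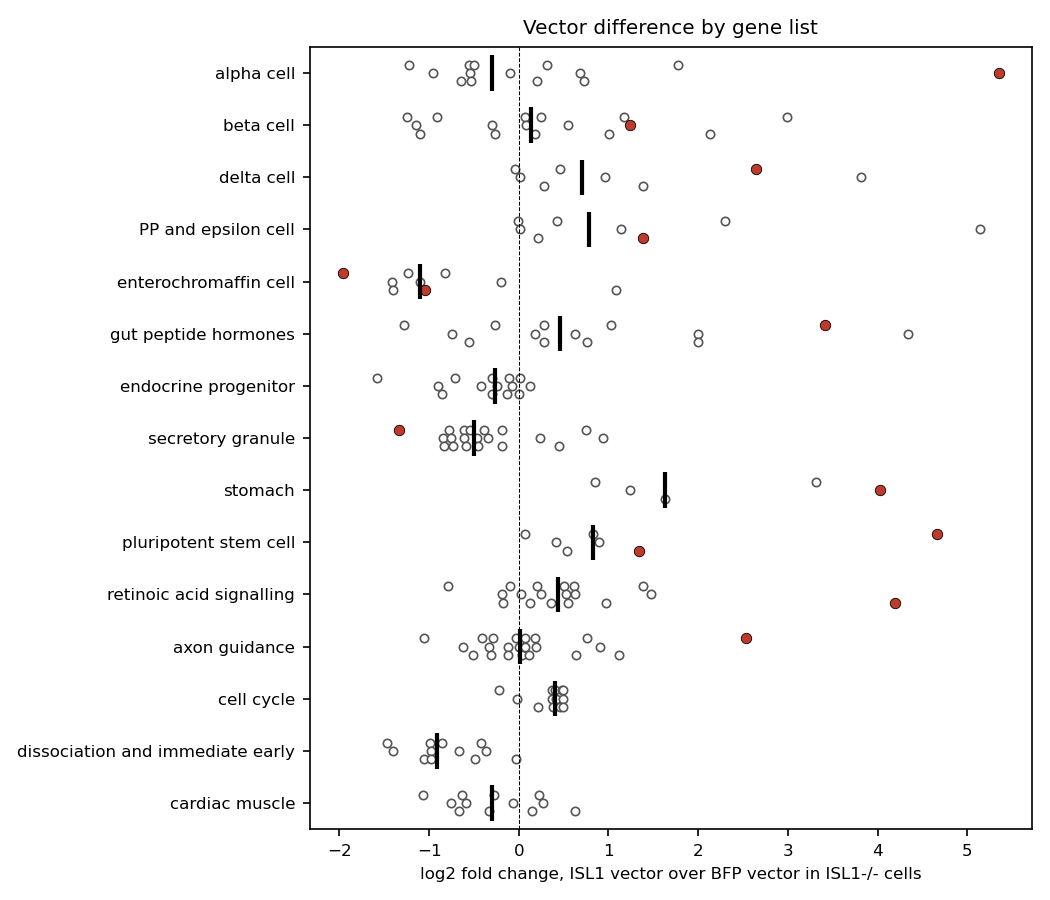
Log2 fold change between the ISL1 and BFP vectors in ISL1-/- cells (x axis) for the tested genes of 15 lists (rows); each circle is a gene, red circles passed at an adjusted p under 0.05, open circles did not, and black bars are list medians. The enterochromaffin list has a median of -1.10 and the stomach list 1.63, while most circles in every list are open.

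Several lists bear on the state and purity of the samples. All 12 dissociation and immediate early genes had negative changes and none passed, with a median of -0.91. Their summed level was 2736, 1303 and 2225 CPM in the BFP-labelled and 1689, 951 and 512 CPM in the ISL1-labelled libraries, which overlapped. Of 13 cell cycle genes 11 had positive changes, none passed and the median was 0.40. No gene passed among 12 second heart field and cardiac genes, 9 mesenchyme genes, 9 tested acinar and duct genes, 9 tested liver and intestine genes, 14 interferon response genes or 18 motor and sensory neuron genes. None passed either among 12 tested pancreatic progenitor genes, 18 genes of insulin release and glucose sensing or 22 of BMP and WNT signalling. These are counts of the fit of all libraries. The fit of 6 libraries called 2 higher and 2 lower of the 18 insulin release genes. It called 3 and 2 of the 22 BMP and WNT genes, and 1 and 3 of 15 tested motor and sensory neuron genes. Pancreatic progenitor genes gave 1 and 1 there, and cell cycle, cardiac and mesenchyme genes 0 and 0. Interferon response genes gave 0 and 1, acinar and duct genes 1 and 0, and liver and intestine genes 0 and 1. Of the 12 dissociation and immediate early genes 0 were called higher and 2 lower, both there and without the 2 libraries of high mitochondrial share. The part of these lists in the results above was not tested.

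Values of the same 99 genes were set beside those in WT and PAX6-/- cells, which share no library with the ISL1-/- comparison. By library name the WT groups hold replicates 1 and 3 with the BFP vector and 1 and 2 with the ISL1 vector. The PDX1-/- groups hold 1, 2 and 3 with BFP and 2 and 4 with ISL1. Replicate numbers are thus not matched between the vectors there, and whether this touches the vector effects in WT and PDX1-/- cells was not tested. In WT cells 7 genes passed between the vectors (0.0270%), and in PAX6-/- cells 92 (0.355%). Of the 65 genes higher in ISL1-/- cells, 56 (86.2%) were higher in WT with a median of 0.98 and 64 (98.5%) in PAX6-/- with a median of 1.03, where 50.3% and 57.4% of all tested genes were higher. Of the 65, 4 passed in WT and 18 in PAX6-/- cells. Of the 34 lower genes, 28 (82.4%) were lower in WT with a median of -0.36 and all 34 in PAX6-/- with a median of -1.33, where 49.6% and 42.6% of all genes were. None of the 34 passed in WT and 21 passed in PAX6-/- cells. In PDX1-/- cells, whose ISL1 vector group rests on 2 libraries of which 1 stands apart, 12.5% of all tested genes passed. There 61 of the 65 (93.8%) were higher with a median of 1.23 and 35 passed in that direction, where 55.5% of all genes were higher. Of the 34, 33 (97.1%) were lower with a median of -1.97, where 44.4% of all genes were, 31 passed in that direction and ESAM passed in the opposite one.

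For single genes the values were as follows. VSIG1 had log2 fold changes of 4.40 ± 0.63 in WT and 2.42 ± 0.46 in PAX6-/- cells and passed in both (adjusted p = 0.00901 and 0.0263), as did NOX4, at 2.73 ± 0.37 and 2.20 ± 0.29. HHEX had 1.84 ± 0.35 in WT (adjusted p = 0.0854) and 2.13 ± 0.29 in PAX6-/- cells (0.00487). MME had -0.27 ± 0.47 in WT and -2.22 ± 0.40 in PAX6-/- cells (adjusted p = 1 and 0.0209), and SYT13 -0.01 ± 0.23 and -1.21 ± 0.19 (1 and 0.00925). GCG had -0.42 ± 0.99 in WT and 1.70 ± 0.83 in PAX6-/- cells (adjusted p = 1 and 0.496). In PDX1-/- cells HHEX had 2.63 ± 0.31 and MME -2.89 ± 0.48.

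**Figure D5:**
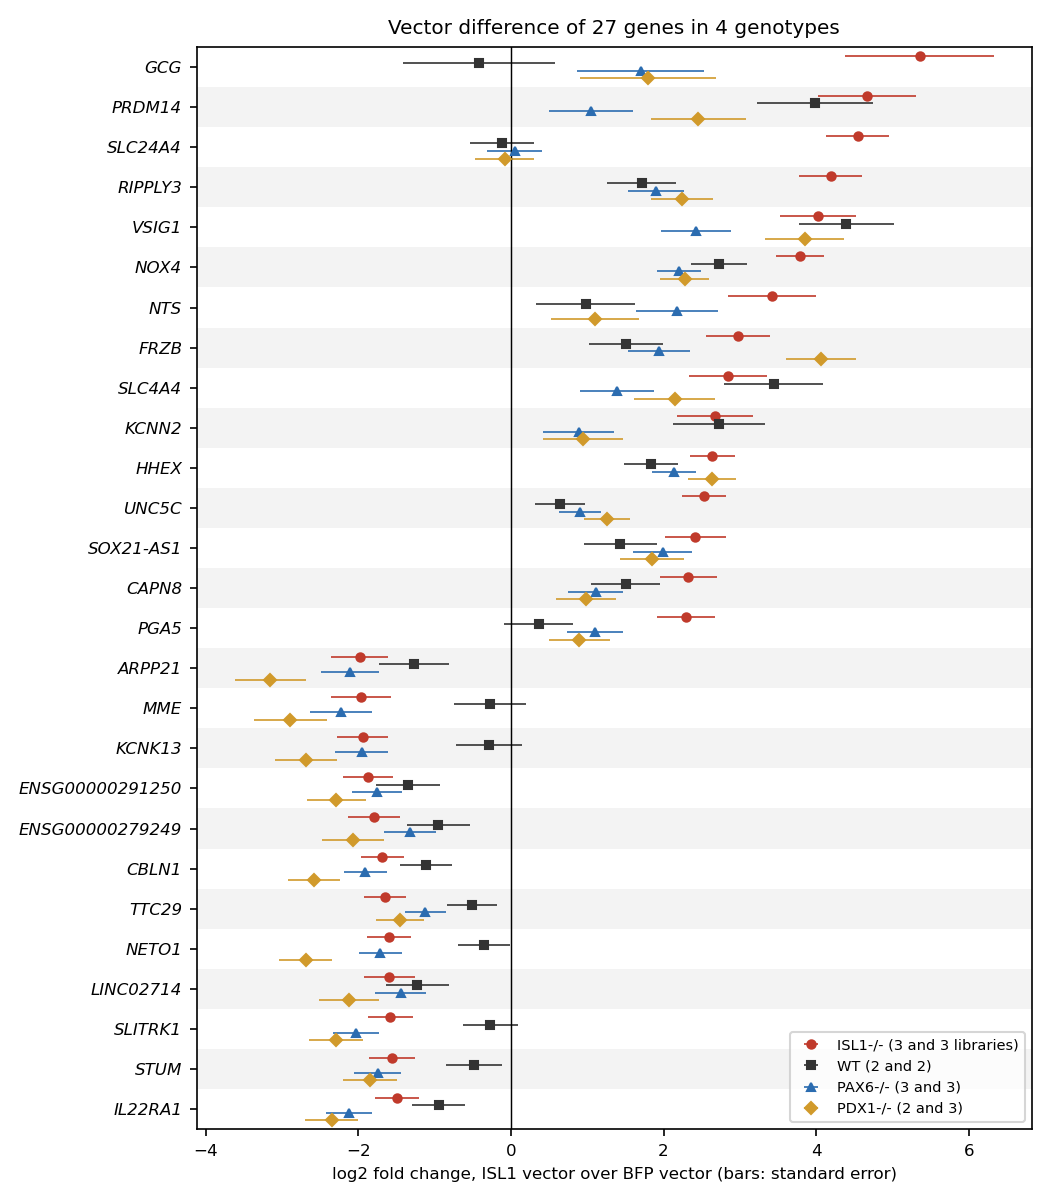
Log2 fold change between the ISL1 and BFP vectors (x axis, bars are standard errors) for the 15 largest rises and 12 largest falls in ISL1-/- cells, in the 4 genotypes. SLC24A4 lies near 0 outside ISL1-/- cells, VSIG1 and NOX4 are higher in all 4 genotypes, and MME and NETO1 lie nearer 0 in WT than in the 3 knockouts.

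The difference between genotypes was tested itself, as the vector effect in ISL1-/- cells minus that in another genotype. Against WT 1 gene passed (0.00386% of those tested; 769 at an unadjusted p under 0.05), and against PAX6-/- also 1 (0.00386%; 608), SLC24A4 both times. Its vector effect was -0.11 ± 0.42 in WT and 0.05 ± 0.36 in PAX6-/- cells, and the differences were 4.66 ± 0.59 (adjusted p = 0.00850) and 4.49 ± 0.54 (adjusted p = 0.00422). PAX6-/- cells had 1.10 ± 0.731 CPM with the BFP vector and 1.13 ± 0.192 CPM with the ISL1 vector (SD, n = 3 each). The difference from WT no longer passed without replicate 3 of the BFP-labelled group (adjusted p = 0.0557), WT replicate 3 with the BFP vector (0.0512), or WT replicates 1 or 2 with the ISL1 vector (0.140 and 0.369), and the difference itself ranged from 4.42 to 4.91.

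Fits of 2 other sets of libraries gave more differences from WT. With ISL1-/- and WT libraries only, 50 genes had a higher and 58 a lower vector effect in ISL1-/- cells, together 0.443% of those tested. Without the 2 libraries of high mitochondrial share 36 and 48 did (0.308%). Of the 99 genes called between the vectors, 25 and 21 were among them. GCG differed by 5.77 ± 0.46 and 5.74 ± 0.67 in these 2 fits (adjusted p = 0.000332 and 0.00103), RIPPLY3 by 2.47 ± 0.30 and 2.45 ± 0.27, MME by -1.70 ± 0.21 and -1.72 ± 0.29, and SYT13 by -1.34 ± 0.15 and -1.36 ± 0.20. Against PAX6-/- the fits gave 2 and 5 genes (0.00823% and 0.0183%), SLC24A4 and PRDM14 in both, with GCG, RIPPLY3 and VSIG1 added in the second. In each of these the vector effect was higher in ISL1-/- cells.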

How the data were processed

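Whole-number gene counts of 21 libraries were deposited by the authors. Per the submitters' processing notes, the tools were STAR 2.7.11b and featureCounts 2.1.1 with genome build GRCh38; the annotation release and strand setting are not given in the sources used here. Per the labels' protocols, RNA was made into libraries with SMART-Seq v4. Of 62700 genes, 1 with a broken entry was left out. All 62699 IDs were found in the list of gene names, which gives some genes no symbol. Depth was 36807615 to 60199880 counts per library.

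Counts were tested in edgeR 4.0.16 (R 4.3.3) with TMM scaling, filterByExpr by group (minimum count 10, total 15), 1 coefficient for each of 8 groups and the quasi-likelihood test. P-values were adjusted by Benjamini-Hochberg over 25884 genes and called under 0.05. Standard errors are the size of the log2 fold change over the root of F. The common biological coefficient of variation was 0.334. Groups and replicate numbers came from the descriptions; 3 titles carry another number. The steps were tested on simulated data. DESeq2 1.42.0, limma 3.58.1 voom, other scaling and filters, fewer libraries and replicate blocks were alternatives.

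Named genes were ISL1, 5 hormone genes, up to 15 rises and 12 falls whose higher group averaged 5 CPM or more, without overlap, every called gene of 29 lists (367 genes), up to 4 examples per list, and genes called between genotypes. Others are said to be chosen after their values were seen, save members of the lists given as values. Such members outside the examples, as ATP2B2, RARB, LDB2, NEUROD4, G6PC2 and PYY, were likewise chosen after their values were seen. The members, lists and tests were chosen with earlier results of these data known. Motifs were searched in RefSeq promoter stretches. No column was without a sample. Some genes are not reported here.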

Additional observations from a re-analysis of the deposited data

Results flagged for a closer look

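SLC24A4 met the test of a difference between genotypes in both comparisons that were run. Its vector effect in ISL1-/- cells was 4.66 higher on the log2 scale than in WT cells and 4.49 higher than in PAX6-/- cells, by the interaction term of edgeR's quasi-likelihood test over 25884 genes. The vector effect in PDX1-/- cells was -0.08 ± 0.38, which was not tested against that in ISL1-/- cells. The groups hold 2 or 3 libraries, too few to tell whether a single library lies far from its group. With 1 library left out the difference ranged from 4.42 to 4.91 against WT and from 3.82 to 4.81 against PAX6-/- cells. The difference from WT did not pass without BFP-labelled ISL1-/- replicate 3 (adjusted p = 0.0557 in edgeR).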

How the results depend on the processing

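Between the vectors in ISL1-/- cells 99 genes passed, and the number was 379 with DESeq2, 2121 with limma voom and sample quality weights, 155 with no filter on low counts, 1450 with the 6 libraries alone and 1345 without both libraries of high mitochondrial share. It ranged from 14 to 364 when 1 library was left out. For the difference from WT, 1 gene in the fit of all libraries, the numbers were 26, 150, 2, 108 and 84 in the same order, and 0 to 2 with 1 library left out. For the difference from PAX6-/-, also 1, they were 3, 13, 2, 2 and 5, and 1 to 2. The libraries behind the changes with 1 left out are named in the report, and beside those the difference from WT gave 2 genes without BFP-labelled replicate 2, and that from PAX6-/- gave 2 without BFP-labelled replicate 2, without PAX6-/- replicate 3 with the ISL1 vector or without PDX1-/- replicate 4 with the ISL1 vector. The cause of the larger numbers was not tested. No gene that is named with a call changed sign, while INS and GHRL, which were not called, did in 1 and 3 alternatives. The balance of the calls did turn: 65.7% were higher in the fit of all libraries, against 44.5% in the fit of 6 libraries, 38.7% without both libraries, 47.9% with limma voom and 47.5% with the block and the 6 libraries alone. Of 64 higher genes with an adjusted p in DESeq2, 64 passed there, and all 34 lower ones; GCG was the higher gene for which DESeq2 gave no adjusted p.

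Replicate numbers of the 2 groups were checked as pairs. Deviations of same-numbered libraries correlated at 0.183, 0.099 and 0.293 for numbers 1, 2 and 3, and those of the other pairs at -0.221 to 0.0662. Each library correlated best with its own number. Not every same-numbered pair was above 0.1 and the labels state no pairing, so the numbers were not taken as pairs in the main fit. The calls and missed thresholds given above are those of a fit without pairs. A replicate block by the number in the library name gave 483 genes between the vectors (255 higher, 228 lower), 4774 with the 6 libraries alone, 497 for the difference from WT with those groups alone, and 2 for the difference from PAX6-/- with all libraries and with those groups alone. All 99 genes passed with this block, and 62 of 65 higher and 31 of 34 lower with a block by the number in the sample title. Of the 65 higher genes 18 had a mean under 1 CPM in the BFP-labelled group, where few reads stand behind each value.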

Other observations

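Several genes outside the lists were higher in the ISL1-labelled than in the BFP-labelled ISL1-/- libraries and were chosen after their values were seen. SCNN1G, a subunit of the epithelial sodium channel, had 0.142, 0.260 and 0.140 CPM in the BFP-labelled and 4.02, 4.60 and 3.40 CPM in the ISL1-labelled libraries, against 0.835 and 1.60 CPM in WT with the BFP vector (4.46 ± 0.85, adjusted p = 0.0239 in edgeR). NKAIN2, whose protein binds a sodium pump subunit, had at most 0.0531 CPM in the BFP-labelled libraries and 0.792, 0.781 and 0.774 CPM in the ISL1-labelled ones (adjusted p = 0.00145). Its relative NKAIN3 had 3.79, 4.37 and 3.70 against 16.9, 15.9 and 15.3 CPM (adjusted p = 0.000346). RARRES2, the chemerin gene, had 31.7, 24.7 and 21.8 against 96.2, 96.8 and 83.2 CPM, and HSD11B2, which inactivates cortisol, 10.5, 7.40 and 6.47 against 40.7, 37.3 and 32.7 CPM. PLPPR5, a membrane protein of growing neurites, moved from 4.64% to 20.8% of the WT level, at 2.48, 2.03 and 1.91 against 6.50, 7.88 and 14.3 CPM (2.16 ± 0.38, adjusted p = 0.0137).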
